A study of Mus musculus with 10 samples.

Results

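The genes described are 9 components of the complement system in mouse tibialis anterior, the fast-twitch muscle at the front of the shin. They were taken by name from the 39179 genes counted in each sample: C1qa, C1qb and C1qc, C1ra, C1s1, C4b, C3, Serping1 and C3ar1. The 10 samples were each the muscle of 1 mouse, 4 mice injected in each flank with PBS (Control) and 6 mice injected under the skin of each flank with LLC cells (LLC). LLC, Lewis Lung Carcinoma, is a transplantable lung cancer cell line of the mouse whose tumors lead to cachexia, a loss of body weight and muscle. Per the sample labels the mice were C57BL/6J, 10 weeks old at injection, and tumor development is given as 23 days for the LLC samples and as 0 days for the Control samples. The series text instead gives C57BL/10 males aged 8 weeks and a collection at 22 days, so strain, age and day are known only as these alternatives.

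Complement is a cascade of plasma proteins that marks microbes, immune complexes and dying cells for clearance. In the classical pathway, C1q, a bouquet-shaped protein built of A, B and C chains, recognizes the target and carries the proteases C1r and C1s, which cleave C4 and then C2, and the resulting enzyme cleaves C3. Serping1, the C1 inhibitor, blocks C1r and C1s, and C3ar1 is the receptor for the C3a peptide released from C3. Most plasma complement is made in the liver, but C1q comes mainly from macrophages and related myeloid cells, whereas C1r, C1s, C4, C3 and the C1 inhibitor are also made locally by fibroblasts and other stromal cells. Here C1qa, C1qb and C1qc are named the C1q chains, and C1ra, C1s1, C4b, C3 and Serping1 the stromal components. These names follow textbook sources of the proteins. RNA from whole muscle does not show which cell made a transcript, and fewer cells of a type cannot be told apart from less RNA per cell.

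Depth and separation of the libraries bear on all values. Total counts were 16693209 to 21303084 per sample, so that the detection floor of 3 counts equals 0.141 to 0.180 CPM of the unscaled library totals. All other CPM values, the count over the library total on a common scale, use totals scaled by TMM factors. In LLC, the library of LLC 1 stood apart from the other 5. The chi-square between the counts of a pair of libraries, divided by its degrees of freedom, was 111 to 181 in the 5 pairs that contain LLC 1 and 7.92 to 56.4 in the other 10, against 3.71 to 8.11 in the 6 Control pairs. The member fold changes, the C1qa to C1s1 ratio and the difference of scores were recomputed without LLC 1, and none of the 8 tested members changed its call. A gene is named as called where edgeR's quasi-likelihood test of LLC against Control, run over 12690 genes, gave a p of at most 0.05 after Benjamini-Hochberg adjustment together with a 1.5-fold or larger change. Adjusted p-values given with edgeR, or with no tool, are from that test unless another fit is named beside them.

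The genes lie at 6 loci in the mouse genome (GRCm38, mm10). The C1q chains form a cluster on chromosome 4, all on the minus strand and with 3 exons each, in the order C1qb (136880129 to 136886187), C1qc (136889804 to 136893065) and C1qa (136895917 to 136898803), which together span 18.7 kb. On chromosome 6, C1ra (124512405 to 124523443, plus strand) and C1s1 (124530345 to 124542359, minus strand) lie within 29.96 kb, and C3ar1 (122847138 to 122856161, minus strand) lies on the same chromosome. C4b (34728380 to 34743882) and C3 (57203970 to 57228136) are both on the minus strand of chromosome 17, and Serping1 (84765387 to 84775444) is on the minus strand of chromosome 2. Exons of C1s1 overlap those of the antisense gene Gm16567, which had 0 counts in every sample.

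Levels of the C1q chains and of the proteases are set against each other below, and C1qa, used in the tested ratio, had no promoter entry. The promoters of C1qb and C1qc and of the protease pair are shown. They are RefSeq promoters of GRCm38.p6, 250 bases before and 50 after the start, read 5′ to 3′ on the gene's strand. Capitals mark a match to 1 of 4 short motifs searched on both strands, namely TTCNNNGAA (the STAT site), GAGGAA (the core of the PU.1 site of myeloid genes), CCAAT and TATAAA. C1qb is at chr4:136886151-136886450 (minus strand), C1qc at chr4:136892865-136893164 (minus strand), C1ra at chr6:124512371-124512670 (plus strand) and the first start of C1s1 at chr6:124542310-124542609 (minus strand).
C1qb: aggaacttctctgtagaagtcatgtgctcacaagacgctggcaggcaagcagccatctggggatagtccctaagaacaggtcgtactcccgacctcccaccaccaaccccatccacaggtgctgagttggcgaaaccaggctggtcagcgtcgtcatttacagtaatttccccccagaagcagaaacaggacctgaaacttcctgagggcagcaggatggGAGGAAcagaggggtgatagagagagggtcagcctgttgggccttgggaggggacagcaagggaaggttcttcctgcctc
C1qc: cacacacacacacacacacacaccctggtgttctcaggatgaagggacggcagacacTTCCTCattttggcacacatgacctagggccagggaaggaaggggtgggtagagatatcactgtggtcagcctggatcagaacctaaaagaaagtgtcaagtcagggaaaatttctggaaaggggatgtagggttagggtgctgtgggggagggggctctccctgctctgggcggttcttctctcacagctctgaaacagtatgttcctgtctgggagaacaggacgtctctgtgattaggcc
C1ra: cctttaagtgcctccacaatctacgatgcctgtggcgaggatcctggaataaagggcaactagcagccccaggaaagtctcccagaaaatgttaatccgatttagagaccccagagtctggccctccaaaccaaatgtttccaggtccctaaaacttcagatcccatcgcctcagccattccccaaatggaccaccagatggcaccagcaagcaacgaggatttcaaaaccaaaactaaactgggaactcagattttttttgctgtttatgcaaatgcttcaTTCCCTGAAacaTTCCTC
C1s1: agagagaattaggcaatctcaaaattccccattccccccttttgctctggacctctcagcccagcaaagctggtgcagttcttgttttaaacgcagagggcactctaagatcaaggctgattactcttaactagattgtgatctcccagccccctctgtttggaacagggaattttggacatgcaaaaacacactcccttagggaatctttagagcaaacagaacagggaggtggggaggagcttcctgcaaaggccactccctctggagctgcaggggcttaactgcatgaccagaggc
Each C1q promoter held 1 GAGGAA, starting at base -30 on the gene's strand in C1qb and, read as its reverse complement on the shown strand, at base -193 in C1qc. The C1ra promoter held 1 TTCNNNGAA at base 33 after the start and 1 reverse-complement GAGGAA at base 45, which do not overlap, and C1s1 held none of the 4. Of 32851 promoters of this length in the table, 28.3% held GAGGAA, 8.30% TTCNNNGAA, 37.4% CCAAT and 13.6% TATAAA, so a match to the first is common. In the other promoters matched, TATAAA occurred at base 15 in C3 and at base -235 in C3ar1. A match in this window describes the letters only. Of the 9 genes, C1qa, C4b and Serping1 had no entry in the promoter table.

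Of the 9 genes, 8 passed the filter on low counts and were tested, and C3ar1 did not pass. None was called higher, and 2 of 8 were called lower, C1ra and C1s1. Over all 12690 tested genes, 5.63% were called, 1.65% higher and 3.99% lower. The log2 fold change was below 0 for 7 of 8 members and above 0 for C4b, with a median of -0.52 against 0.0019 over all tested genes. In 3 of 8, C1ra, C1s1 and Serping1, every LLC value lay below every Control value, whereas groups without overlap in either direction were found for 16.0% of all tested genes.

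**Figure D1:**
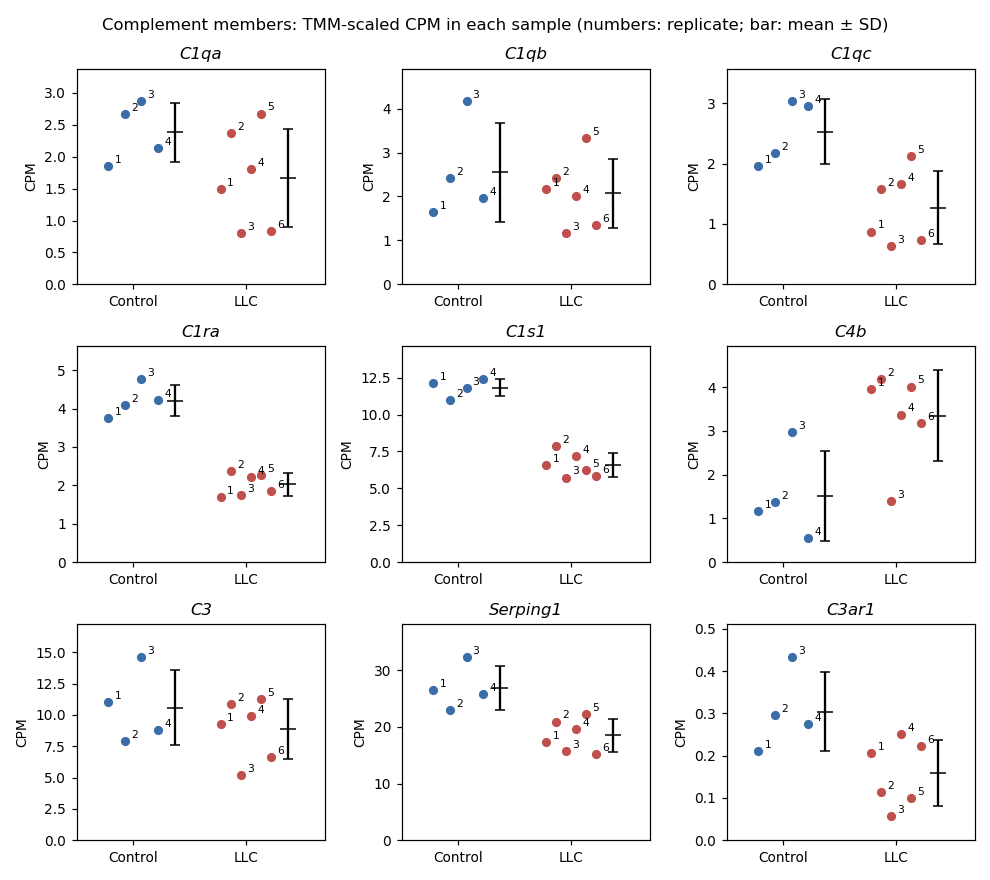
TMM-scaled CPM (vertical axis, linear from 0) of the 9 complement genes, 1 panel per gene, with a numbered point for each of the 4 Control and 6 LLC mice and a bar at the mean ± SD. C1ra, C1s1 and Serping1 have LLC points that all lie below the Control points, the C1q chains and C3 overlap, and C4b has higher LLC points apart from LLC 3.

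The protease genes of the C1 complex had the clearest difference between the groups. C1ra, the mouse C1r that activates C1s, was at 3.76, 4.10, 4.76 and 4.22 CPM in Control 1 to 4, and in LLC the lowest value was 1.70 CPM, the median 2.03 CPM and the highest 2.37 CPM. Every LLC mouse was thus below every Control mouse, with a gap between the groups wider than the whole range within LLC. The mean fell to 2.02 ± 0.298 CPM (SD, n = 6) in LLC from 4.21 ± 0.415 CPM (SD, n = 4) in Control, which is -1.05 ± 0.14 (SE) as a log2 fold change (edgeR, adjusted p = 0.00103). C1s1, the mouse C1s that cleaves C4 and C2, was at 12.1, 11.0, 11.8 and 12.4 CPM in Control 1 to 4, and in LLC the lowest value was 5.73 CPM, the median 6.41 CPM and the highest 7.85 CPM. Again the groups did not overlap, and the Control values lay close together. Its mean fell to 6.57 ± 0.827 CPM (SD, n = 6) in LLC from 11.8 ± 0.595 CPM (SD, n = 4) in Control, which is -0.85 ± 0.11 (SE) as a log2 fold change (edgeR, adjusted p = 0.000867). Both genes kept their call in every fit that left out 1 sample, with log2 fold changes of -1.10 to -0.99 for C1ra and -0.89 to -0.81 for C1s1. The values rest on 30 to 88 counts per sample for C1ra and 99 to 229 for C1s1. Of the 100-base windows of its exons, C1ra shares 35.9% exactly with C1rb or the pseudogene Gm18840, and C1s1 shares 7.90% with C1s2. C1rb had 0 counts in all samples, and no counted gene carried the symbol Gm18840. How reads of the shared windows were assigned was not tested.

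Serping1, the inhibitor of these proteases, had the highest counts of the 9 genes. It was at 26.6, 23.0, 32.3 and 25.9 CPM in Control 1 to 4, and the lowest, median and highest LLC values were 15.3, 18.5 and 22.3 CPM. The highest LLC value, in LLC 5, was below the lowest Control value, in Control 2, by less than 1 CPM, so the groups were adjacent and did not overlap. The mean was 26.9 ± 3.90 CPM (SD, n = 4) in Control and 18.5 ± 2.87 CPM (SD, n = 6) in LLC, which is -0.54 ± 0.13 (SE) as a log2 fold change (edgeR, adjusted p = 0.0321). The difference passed the p threshold and not the 1.5-fold threshold, so Serping1 was not called. Leaving out 1 sample gave adjusted p-values of 0.0226 to 0.121. It was called without Control 2, at -0.61, and without LLC 5, at -0.60 on the log2 scale, and no longer passed the p threshold without Control 1 (adjusted p = 0.0869), Control 3 (0.121), Control 4 (0.0765), LLC 3 (0.0564) or LLC 6 (0.0729).

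C4b was the only member of the 9 with a higher mean in LLC. The gene encodes C4, the substrate of C1s, and was at 1.17, 1.38, 2.97 and 0.548 CPM in Control 1 to 4. In LLC 1 to 6 it was at 3.96, 4.18, 1.39, 3.38, 4.02 and 3.19 CPM. In 5 of the 6 LLC mice it was above every Control mouse, LLC 3 was within the Control range, and the highest Control value, in Control 3, was the one nearest to LLC. The mean was 1.52 ± 1.03 CPM (SD, n = 4) in Control and 3.35 ± 1.04 CPM (SD, n = 6) in LLC, with a log2 fold change of 1.14 ± 0.40 (SE). It was not called in edgeR's quasi-likelihood test (adjusted p = 0.101, unadjusted p = 0.0141), whereas DESeq2's Wald test called it (adjusted p = 0.0380). Without Control 3, edgeR's test called it as well, at 1.69 (adjusted p = 0.0351), and over all fits that left out 1 sample the log2 fold change was 0.87 to 1.69. C4b had 10 to 55 counts per sample in Control and 24 to 81 in LLC. It shares 16.5% of its 100-base windows with C4a, which was at 0.0496 to 0.309 CPM, so reads of the pair could not be separated fully.

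C3, the central component on which all complement pathways converge, was at 11.0, 7.90, 14.6 and 8.82 CPM in Control 1 to 4, and at 5.21 (lowest), 9.59 (median) and 11.3 CPM (highest) in LLC. The ranges overlapped, with LLC 3 and LLC 6 below the lowest Control value. The mean was 10.6 ± 2.98 CPM (SD, n = 4) in Control and 8.86 ± 2.41 CPM (SD, n = 6) in LLC. C3 was not called, at -0.25 ± 0.23 (SE) on the log2 scale (edgeR, adjusted p = 0.480). The value was -0.061 without Control 3 and -0.14 without LLC 3.

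None of the 3 C1q chains was called, and all had lower means in LLC. C1qa, the A chain, was at 1.85, 2.67, 2.87 and 2.14 CPM in Control 1 to 4, and at 1.49, 2.37, 0.811, 1.81, 2.68 and 0.839 CPM in LLC 1 to 6. LLC 3 and LLC 6 were lowest and LLC 2 and LLC 5 lay within the Control range, so the LLC mice covered a wider span than the Control mice. Its mean was 2.38 ± 0.467 CPM (SD, n = 4) in Control and 1.67 ± 0.773 CPM (SD, n = 6) in LLC, which is -0.50 ± 0.31 (SE) as a log2 fold change (edgeR, adjusted p = 0.305). C1qb, the B chain, was at 1.64, 2.42, 4.16 and 1.97 CPM in Control 1 to 4, and at 1.16 (lowest), 2.09 (median) and 3.32 CPM (highest) in LLC. Control 3 alone was above the LLC range. The means were 2.55 ± 1.12 and 2.07 ± 0.783 CPM, and C1qb was not called, at -0.29 ± 0.32 (SE) on the log2 scale (edgeR, adjusted p = 0.561). Without Control 3 it was 0.045.

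C1qc, the C chain, had the largest difference of the C1q chains. It was at 1.96, 2.17, 3.03 and 2.96 CPM in Control 1 to 4, and at 0.874, 1.58, 0.637, 1.66, 2.13 and 0.727 CPM in LLC 1 to 6. Only LLC 5 overlapped the Control values. The mean was 2.53 ± 0.543 CPM (SD, n = 4) in Control and 1.27 ± 0.608 CPM (SD, n = 6) in LLC, a log2 fold change of -0.98 ± 0.31 (SE). It was not called by edgeR (adjusted p = 0.0831, unadjusted p = 0.0089) and passed in DESeq2's Wald test (adjusted p = 0.0352), in limma voom with sample weights (adjusted p = 0.0132) and in edgeR's test without LLC 5 (adjusted p = 0.0493). The chains assemble into 1 protein, and their transcripts were compared per kilobase of exon as shares of the sum of the 3. The exon length of C1qc, merged over its transcripts, was 1931 bases, while its longest coding transcript has 1203. For C1qa (1040) and C1qb (1088) both lengths are equal, so the size of the C1qc share depends on the length taken. C1qc held 22.6% ± 4.41 (SD, n = 4) of the sum in Control and 15.6% ± 2.45 (SD, n = 6) in LLC, C1qb 38.3% ± 6.01 and 46.7% ± 4.39, and C1qa 39.2% ± 4.18 and 37.7% ± 3.18. The lowest and highest C1qc shares were 19.0% and 28.4% in Control, and 11.7% and 19.3% in LLC, so the groups touched at their edges.

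Counting error alone is large for these genes. C1qa, C1qb and C1qc had 35 to 54, 31 to 77 and 37 to 56 counts per sample in Control, and 14 to 54, 20 to 67 and 11 to 43 in LLC. In LLC the SD of log2 CPM was 0.68, 0.53 and 0.66 for C1qa, C1qb and C1qc, against 0.29, 0.25 and 0.33 from counting error. For C1ra the observed SD was 0.20, under its counting SD of 0.24, and for C1s1 it was 0.18 against 0.13. In Control the observed SD was 0.28, 0.56 and 0.30 for C1qa, C1qb and C1qc, against 0.22, 0.22 and 0.21 from counting, so that C1qb was as widely spread among Control mice as among LLC mice. These SDs hold differences between mice as well as counting error.

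C3ar1, the C3a receptor of myeloid cells, was near the limit of detection. Its counts were 4, 6, 8 and 5 in Control 1 to 4 and 4, 2, 1, 5, 2 and 4 in LLC 1 to 6. The summed counts were 23 in Control (exact 95% Poisson interval 14.6 to 34.5) and 18 in LLC (10.7 to 28.4), counting error only. In 3 of 6 LLC samples it had fewer than 3 counts. The mean was 0.304 ± 0.0931 CPM (SD, n = 4) in Control and 0.159 ± 0.0786 CPM (SD, n = 6) in LLC, and a fit without the filter gave a log2 fold change of -0.88 ± 0.44 (SE, edgeR, adjusted p = 0.279).

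Levels were compared between the genes as CPM per kilobase of exon, merged over the transcripts of a gene. For C1qc this length was 1931 bases against 1203 in its longest coding transcript, so its rank depends on the length taken. In Control, Serping1 was highest at 11.6 ± 1.68 (SD, n = 4), followed by C1s1 at 3.78 ± 0.190, and these neighbors did not overlap. C1qb (2.34 ± 1.03), C1qa (2.29 ± 0.449), C3 (2.06 ± 0.579), C1ra (1.41 ± 0.139) and C1qc (1.31 ± 0.281) followed, and each overlapped the next over the 4 mice, as C1s1 did with C1qb. C4b came next at 0.266 ± 0.181, below all C1qc values, and C3ar1, which overlapped C4b, was last at 0.0705 ± 0.0216. In LLC, Serping1 was at 7.96 ± 1.23 CPM per kilobase (SD, n = 6), C1s1 at 2.10 ± 0.264, C1qb at 1.90 ± 0.720, C3 at 1.72 ± 0.469, C1qa at 1.60 ± 0.743, C1ra at 0.679 ± 0.100, C1qc at 0.657 ± 0.315 and C4b at 0.588 ± 0.182. Serping1 was above every value of C1s1, and the genes from C1s1 to C4b each overlapped the next over the 6 mice. C3ar1, at 0.0368 ± 0.0183, was below every value of C4b. Per length, C4b was below C1qc in every Control mouse and in the same range as C1qc and C1ra in LLC.

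**Figure D2:**
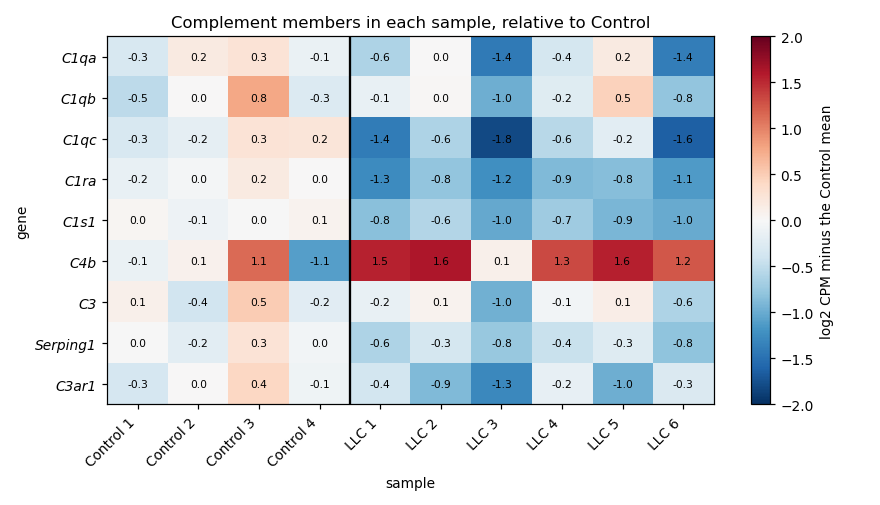
Log2 CPM of each complement gene in each of the 4 Control and 6 LLC mice, as the difference from the Control mean of that gene. Control 3 is highest of the Control mice for 8 of 9 genes, and LLC 3 is lowest or second lowest of the LLC mice for all 9.

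The members varied together among mice of a group. Control 3 had the highest Control value for 8 of 9 genes, C1s1 being the exception. LLC 3 had the lowest LLC value for 7 of 9 and was among the lowest 2 for all 9, and LLC 6 was among the lowest 2 for 7. LLC 5 had the highest LLC value for C1qa, C1qb, C1qc, C3 and Serping1, and LLC 2 for C1ra, C1s1 and C4b. Over the 10 samples, which share depth and library, Pearson correlations of the deviations from the group means were 0.78 to 0.90 for the 3 pairs of C1q chains. They were 0.34 to 0.89 for the 15 pairs of a C1q chain and a stromal component, with a median of 0.78, and 0.25 to 0.92 among stromal components, with C3 and Serping1 the highest. C3ar1, with few counts, had 0.11 to 0.31 with the C1q chains. These values describe the samples and were not tested.

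The question of whether macrophage-made C1q and the stromal components moved differently was addressed by the log2 ratio of C1qa to C1s1 within each mouse. The ratio was -2.42, -1.86, -1.87 and -2.29 in Control 1 to 4, and -1.83, -1.54, -2.25, -1.74, -1.09 and -2.24 in LLC 1 to 6. Values of 4 LLC mice lay above the Control range, LLC 1 only just, and those of LLC 3 and LLC 6 lay within it. The mean was -2.11 ± 0.29 (SD, n = 4) in Control and -1.78 ± 0.44 (SD, n = 6) in LLC, a difference of 0.33, which did not pass an exact permutation test (two-sided, p = 0.2, smallest possible p = 0.00952). A p above the threshold does not show that C1qa and C1s1 moved alike. The result depended on the constant added to the CPM values. A pseudocount of 2 in place of 0.5 gave a difference of 0.42 with an exact permutation p of 0.00952. That constant is near the C1qa values themselves (0.811 to 2.87 CPM) and small beside those of C1s1 (5.73 to 12.4 CPM). It therefore shrinks differences in C1qa more than those in C1s1. On raw counts plus 0.5 the difference was 0.23, with an exact permutation p of 0.562.

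The direction of the contrast depended on which stromal component was taken. Of 15 ratios of a C1q chain to a stromal component, 8 were higher and 7 lower in LLC. Against C1ra all 3 differences were above 0, at 0.07 to 0.67 on the log2 scale, and against C1s1 they were -0.02 to 0.57. Against C3 they were -0.58 to 0.02 and against Serping1 -0.30 to 0.29. Against C4b all 3 were below 0, at -1.84 to -1.24, and each was without overlap between the groups.

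Group scores, the mean log2 CPM of the genes minus the Control mean, were then read per mouse. The score of the C1q chains in LLC 1 to 6 was -0.72, -0.20, -1.40, -0.38, 0.14 and -1.27, with 3 of 6 below every Control mouse (mean -0.64 ± 0.61, SD, n = 6). The score of the 5 stromal components was -0.26, -0.01, -0.78, -0.15, -0.07 and -0.47 (mean -0.29 ± 0.29). The difference between them was -0.35 ± 0.36 in LLC, no larger than its SD over the mice. With C4b left out, a choice made after the values were seen, the stromal score was -0.67 ± 0.24, below every Control mouse in 6 of 6, and the difference was 0.031 ± 0.39. Without C4b the difference was thus small beside its SD over the mice and had no clear sign. No other component was left out of the stromal score.

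**Figure D3:**
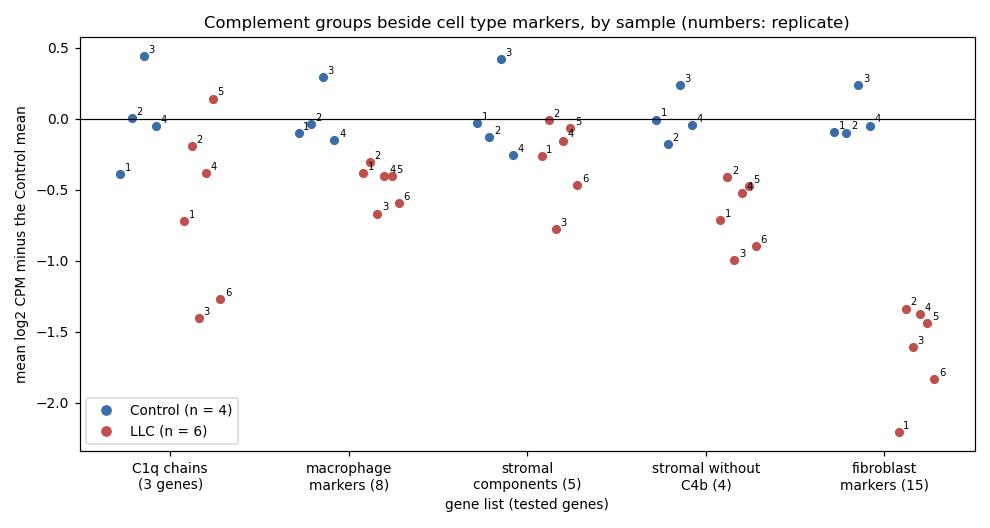
Mean log2 CPM minus the Control mean for each mouse (points, 4 Control and 6 LLC) for the C1q chains, the stromal components with and without C4b, and the marker lists of macrophages and fibroblasts. The C1q chains spread from -1.40 to 0.14 in LLC, and the fibroblast markers lie below every Control mouse in all 6 LLC mice.

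Cell type markers were read beside these values. Of 16 macrophage markers, 8 were tested, and 0 were called higher and 2 lower, beside 1.65% and 3.99% of all tested genes. The 2 were Mrc1 at -1.05 (adjusted p = 0.00335) and Lyve1 at -2.53 (adjusted p = 0.00303), genes of tissue-resident macrophages, of which Lyve1 also marks lymphatic endothelium. Lyve1 had 14 to 32 counts in Control and 1 to 6 in LLC, so it passed the filter only through Control. For markers not tested, a fit without the filter gave log2 fold changes from -1.68 (Folr2, edgeR, adjusted p = 0.0220) to 1.24 (Cd14, edgeR, adjusted p = 0.181). The score of the 8 tested markers was -0.46 ± 0.14 in LLC (SD, n = 6), below every Control mouse in 6 of 6. Lyve1 contributed much of it: without Lyve1, a choice made after the values were seen, the score was -0.23 ± 0.095, below every Control mouse in 5 of 6. Of the 8, Lyz2 (0.36), Ctss (0.52) and Cd68 had log2 fold changes above 0 and were not called. The summed level was 27.5 to 40.6 CPM in Control and 24.4 to 38.0 CPM in LLC. Csf1r, the receptor that macrophages need to survive, had a log2 fold change of -0.73 ± 0.24 (SE, adjusted p = 0.0868) and the lysosomal marker Cd68 one of 0.50 ± 0.43 (SE, adjusted p = 0.449). Adgre1, which encodes F4/80, had 2 to 11 counts in Control and 4 to 12 in LLC and was not tested. The C1q score minus the macrophage score was -0.18 ± 0.50 in LLC, and -0.41 ± 0.53 without Lyve1.

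The 15 markers of fibro-adipogenic progenitors and fibroblasts were all tested, with a median of -1.77. Of these, 1 was called higher and 13 lower, beside 1.65% and 3.99% of all tested genes. Pdgfra, the receptor that defines these progenitors, was at -1.40, and the matrix proteoglycan genes Dcn and Lum were at -1.36 and -2.54, all called lower. The marker called higher was Ly6a, at 20.2 to 32.4 CPM in Control and 42.9 to 64.4 CPM in LLC. The summed level was 611 to 754 CPM in Control and 237 to 314 CPM in LLC. The fibroblast score was -1.63 ± 0.34 in LLC (SD, n = 6), and the stromal complement score minus the fibroblast score was 1.34 ± 0.36, above every Control mouse in 6 of 6. All 7 tested neutrophil markers were called higher, beside 1.65% of all tested genes. S100a8, S100a9 and Csf3r rose by 6.33, 5.74 and 4.17 on the log2 scale. The summed level of the list was 0.794 to 1.98 CPM in Control and 32.3 to 70.5 CPM in LLC. These genes had few counts in Control, S100a8 1, 7, 0 and 5 in Control 1 to 4 against 155 to 424 in LLC. They passed the filter on low counts through LLC, which favored calls of higher. Ly6g, with 0 to 4 counts in LLC, was not tested. Endothelial markers summed to 265 to 345 CPM in Control and 267 to 298 CPM in LLC, with 1 of 7 called lower, Kdr. Of the first genes of that list, Pecam1 was at 0.31 and Cdh5 at -0.37, neither called. Fast muscle fiber markers summed to 114360 to 121980 CPM in Control and 75540 to 129470 CPM in LLC, so these defining genes of the muscle were abundant in both groups, and 0 of 8 were called. Acta1, Ckm and Myh4 were at -0.44, -0.13 and 0.13. Adipocyte markers summed to 1.04 to 7.19 CPM and 1.64 to 3.50 CPM, with 0 of 2 tested called (Adipoq at -0.82 and Cidec at -0.90). Hepatocyte markers summed to 0.548 to 1.06 CPM and 0.103 to 0.348 CPM, none tested. Of these, Ttr and Fgb were at 0 in every sample and Alb and Apoa1 at or near 0, whereas Apoh, which made up most of the sum, had 10 to 18 counts in Control and 2 to 6 in LLC (-1.60 ± 0.35, SE, adjusted p = 0.0162 in a fit without the filter). Exons of Apoh overlap those of the antisense gene Prkca, whose part in these counts was not tested. The part of any of these cell types in the complement values was not tested.

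**Figure D4:**
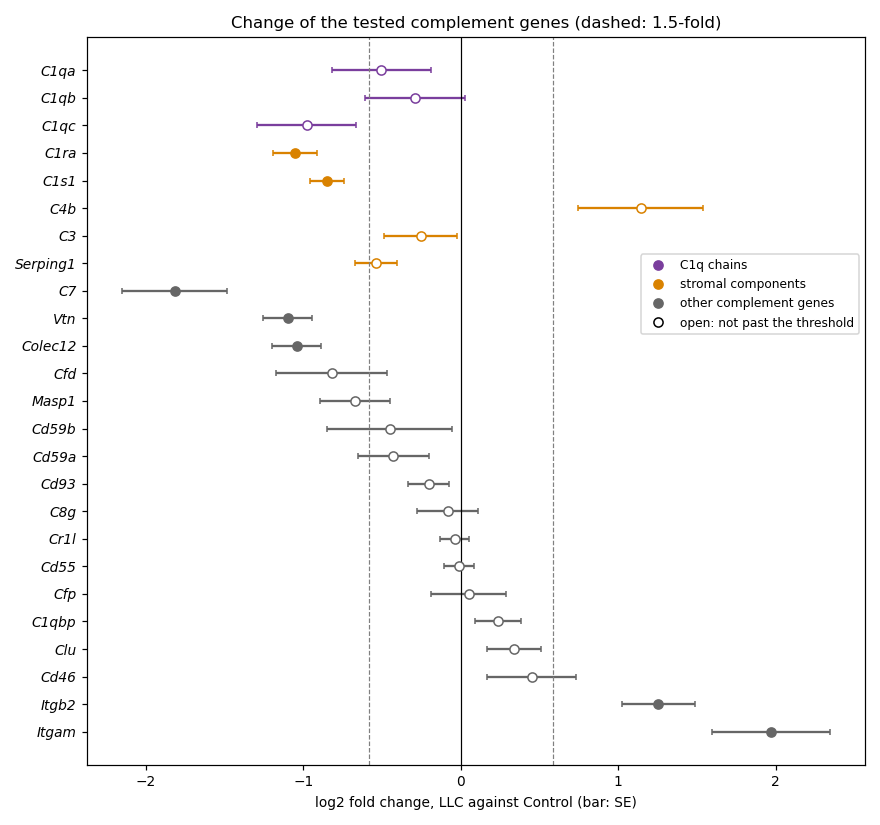
Log2 fold changes (LLC over Control) with their SE for the 8 tested members and 17 of the 18 other tested complement genes by gene (open points, not called; dashed lines, 1.5-fold). C1ra, C1s1, C7, Vtn and Colec12 were called lower and Itgam and Itgb2 higher.

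The other genes of the pathway came from a list of 50, of which 18 were tested and 11 had 0 counts in every sample. Of the 18, 2 were called higher and 3 lower, beside the 1.65% and 3.99% of all tested genes, and the median log2 fold change was -0.14. Among recognition molecules and proteases, Colec12, a collectin scavenger receptor, fell to 1.15 ± 0.192 CPM in LLC from 2.38 ± 0.216 in Control, with a log2 fold change of -1.04 ± 0.16 (SE, adjusted p = 0.00218). Masp1, a protease of the lectin pathway, was at -0.67 (adjusted p = 0.0922) and was not called. In the terminal pathway, C7, a part of the membrane attack complex, fell to 0.944 ± 0.50 CPM in LLC from 3.34 ± 1.26 in Control, with a log2 fold change of -1.82 ± 0.33 (SE, adjusted p = 0.00738). Of the alternative pathway, Cfd, the adipocyte protease adipsin, was at 10.8 ± 4.92 CPM in Control and 6.13 ± 2.40 CPM in LLC, and was not called at -0.82 ± 0.35 (SE, adjusted p = 0.164).

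Among 17 regulators 8 were tested, and 1 was called. Vtn, or vitronectin, which blocks assembly of the membrane attack complex, fell to 9.0 ± 1.95 CPM in LLC from 19.3 ± 2.37 in Control, with a log2 fold change of -1.10 ± 0.16 (SE, adjusted p = 0.00155). The membrane regulators Cd55 and Cd59a, which protect host cells, were at -0.01 ± 0.09 (SE, adjusted p = 0.943) and -0.43 ± 0.23 (SE, adjusted p = 0.238). The fluid-phase regulator Clu was at 0.34 ± 0.17 (SE, adjusted p = 0.220). None of these 3 was called.

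Of the receptors, Itgam and Itgb2 rose. They encode CD11b and CD18, which pair as complement receptor 3 on neutrophils and macrophages and bind a fragment of C3. Itgam rose to 1.36 ± 0.287 CPM (SD, n = 6) in LLC from 0.340 ± 0.253 CPM (SD, n = 4) in Control, with a log2 fold change of 1.97 ± 0.37 (SE, adjusted p = 0.00875). It had 3, 9, 12 and 2 counts in Control 1 to 4 and 20 to 37 in LLC. It thus passed the filter on low counts through LLC, which favored a call of higher. Itgb2 rose to 1.42 ± 0.348 CPM in LLC from 0.593 ± 0.0491 in Control, with a log2 fold change of 1.25 ± 0.23 (SE, adjusted p = 0.00760). In each of the 5 called genes, which were picked by that call, the groups did not overlap, beside 16.0% of all tested genes. The receptor genes moved beside the neutrophil markers given above, whose part was not tested. C1qbp, a mitochondrial protein first found as a C1q binder, and Cd93, an endothelial glycoprotein once named a C1q receptor, were at 0.24 ± 0.15 (SE, adjusted p = 0.303) and -0.20 ± 0.13 (SE, adjusted p = 0.315).

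Genes that followed the complement genes from mouse to mouse were sought among 10276 genes with an average log2 CPM of at least 1, by the Pearson correlation of deviations from the group means over the 10 samples. Most like the C1q chains were Lyz2 (r = 0.96, Spearman's rho = 0.95), Plau (0.94 and 0.95), Alox5ap (0.92 and 0.93), Rnase4 (0.91 and 0.85) and Rarres2 (0.91 and 0.89). Lyz2, also on the macrophage list, encodes the lysozyme of myeloid cells, Plau the urokinase plasminogen activator, and Alox5ap a protein of leukotriene synthesis in myeloid cells. With the 2 samples whose C1q score lay farthest from their group mean, LLC 3 and LLC 5, left out, r was 0.81 to 0.92 for these 5. Most like the stromal components were Ctsh (0.93 and 0.85), Rnase4 (0.92 and 0.81), Plau (0.92 and 0.84), Lyz2 (0.89 and 0.90) and Axl (0.88 and 0.76), so 3 of the 5 genes were named for both groups. Without Control 3 and LLC 3, the 2 samples whose stromal score lay farthest from their group mean, r was 0.67 to 0.87. The correlations were the highest of many and have no test, and the samples share depth and library.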

How the data were processed

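Tibialis anterior RNA of 4 Control and 6 LLC mice was analysed, 1 library per mouse. Per the labels and methods, the authors made stranded total RNA libraries, sequenced all in 1 lane, mapped reads with TopHat2 to mm10 and counted reads per gene with HTSeq at its defaults. The deposited values are whole-number counts, not normalized, listed by Ensembl identifier although RefSeq genes are described, the annotation release is not given in the sources used here, and no strand setting is named beyond those defaults. Of 39179 identifiers, 37607 were matched to a symbol. Coordinates and exonic lengths are those of GENCODE M21.

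Genes were kept by filterByExpr (count minimum 10), scaled by TMM and tested in R 4.3.3 by the quasi-likelihood F-test of edgeR 4.0.16, with Benjamini-Hochberg adjustment over all 12690 genes kept. Log2 CPM used a prior count of 2, and the ratio test a pseudocount of 0.5. The fit was tested on simulated data. Named were the 9 members, other complement genes past the threshold and the 5 highest per kilobase, the first 3 genes of each marker list and the 5 genes most correlated with each group. 1 listed gene is not reported here by name. The remaining genes were named after their values were seen. The members and lists were chosen with earlier results of these data known. Intervals and floors cover counting error only, since PCR reads are not independent molecules. Alternatives were scaling (upper-quartile, median-of-ratios), filters, DESeq2 1.42.0, limma 3.58.1 voom, the threshold, leaving out each sample, and a block for the replicate number.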

Additional observations from a re-analysis of the deposited data

Results flagged for a closer look

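C4b in LLC 3 stood apart from the other LLC mice. Its level of 1.39 CPM was the lowest of 6, and the gap to the next value divided by the range of log2 CPM in LLC was 0.750, above Dixon's 95% critical value for 6 samples. The other 5 LLC mice were at 3.19 to 4.18 CPM. LLC 3 also had the lowest LLC value of 7 of the 9 complement genes. The search covered 12 measures in both groups, 24 sets of values, and found 1, against 1.2 that chance gives at 1 in 20.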

How the results depend on the processing

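Among the 8 tested members the log2 fold change kept its direction in 20 alternatives each, apart from C1qb, which was -0.48 to 0.045 with each sample left out, above 0 only without Control 3. The alternatives with an unadjusted p and with no fold minimum changed the threshold only, so their fold changes could not differ. The 2 member calls became 4 with DESeq2 (1 higher and 3 lower), 4 with an unadjusted p, 2 to 4 with each sample left out, and 0 with the replicate number as a block. In that block fit C1ra was at -1.07 (adjusted p = 0.0641) and C1s1 at -0.80 (adjusted p = 0.0672) with edgeR, and 4 members were lower at an unadjusted p under 0.05. The labels give no pairing of the mice by number. Deviations of same-numbered mice correlated at -0.08 to 0.13, and a batch shared by number was not tested. The 715 calls over all genes became 112 under this block, 475 with 10 counts in every sample, 1572 with an unadjusted p and 415 to 966 with each sample left out. The other complement genes went from 5 calls to 0 under the block (unadjusted, 2 higher and 4 lower), 3 with 10 counts in every sample, and 5 to 6 with each sample left out. The C1qa to C1s1 difference of 0.33 was 0.42 with a pseudocount of 2 (exact permutation p = 0.00952) and 0.23 on raw counts (exact permutation p = 0.562). It was 0.27 when paired by block, and 0.19 to 0.42 with each sample left out. The C1q minus stromal score of -0.35 was 0.031 without C4b, an alternative added after the data were seen, and -0.47 to -0.26 with each sample left out. The median over all genes shifted by -0.03 with upper-quartile and by 0.01 with median-of-ratios scaling. Of the 5 genes most like each group, 3 and 3 remained without LLC 1, and with Spearman correlation 3 for the C1q chains and 1 for the stromal components. The causes were not tested. Genes with few counts, C3ar1 first, allow no statement on small changes.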
